A study of Mus musculus with 12 samples.

Results

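The 43 genes described here act at the G1/S transition and in the replication of DNA. They were chosen as a fixed set of gene symbols by function, with earlier results of these data known. The symbols were matched by gene ID to a table of 53647 gene IDs. All 43 reached 1 TPM (transcript abundance corrected for length, with the same total in every library) in at least 2 libraries and were among the 15535 genes tested. Transcripts were measured by RNA-seq of polyadenylated RNA from mouse embryos at embryonic day 9.5. Embryos whose genotype is labelled p53 +/+ (wild type) or p53 -/- (knockout) were left untreated, or were irradiated in the pregnant mother with 30 Gy of X-rays at 5 Gy per minute and taken 1 h or 3 h later. Each of the 6 groups held 2 libraries, numbered 1 and 2. The sources used here do not name the strain, the mothers' genotype or how many embryos made a library. TPM keeps no read depth, so the depth of each library is unknown and no counting error can be given. Where 2 values stand together below, the first belongs to the library numbered 1.

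Cells enter S phase when cyclin E, bound to its kinase, completes the release of E2F transcription factors, which then drive the genes for replication. Before that, ORC, CDC6 and CDT1 load the ring of MCM2 to MCM7 at origins, and CDC45 and GINS later turn the ring into a moving helicase. After DNA damage p53 induces p21 (Cdkn1a), which inhibits the cyclin E kinase and so keeps E2F target genes low, and much of the midgestation embryo is in rapid division.

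The label check went against the labels. Trp53, the gene for p53, stood between 209.5 and 250.1 TPM in the irradiated libraries labelled knockout and between 66.8 and 114.3 TPM in those labelled wild type. Untreated, it stood at 265 and 79.1 TPM under the knockout label and at 114 and 211 TPM under the wild type label, so that the libraries numbered 2 were in the opposite order to the others. Under the knockout label Cdkn1a reached 499 and 444 TPM at 3 h and 79.3 and 76.2 TPM at 1 h, and it lay between 5.38 and 8.36 TPM in the other 8 libraries. Directions below therefore refer to libraries as labelled. Each untreated group holds libraries far apart in Trp53, which limits what any comparison with it can say of genotype. Both 1 h libraries numbered 2 also stood apart, with ribosomal protein genes at shares of 19.7% and 19.6%, where the other 10 libraries had 11.9% to 14.2%. Whether both libraries of a group come from separate embryos is not said in the labels, so p-values measure only the spread between these libraries, which may be technical.

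Because E2F sites are the shared feature by which many genes of this kind are known, the bases upstream of the members' starts were searched. RefSeq promoter sequences (build GRCm38.p6) were found for 35 of the 43 members, not for Pole, Gins2, Gmnn, Gins1, Gins4, Mcm4, Ccne2 and Tipin. The letters searched on both strands were the E2F consensus variants TTTCCCGC, TTTCGCGC, TTTGCCGC and TTTGGCGC. A match is a string of letters and not a measured site. Of the 35 members, 10 (28.6%) held a match within 250 bases upstream, against 3.85% of 10873 tested genes with a sequence of that length. These were Cdc6, Dtl, Gins3, Mcm5, Mcm6, Mcm7, Orc1, Pola1, Rfc3 and Uhrf1. Where a gene had more than 1 start, a match at any of them counted, and Mcm7 and Uhrf1 also had a window without a match. Ccne1, Slbp and Chaf1b, which are called between the labels at 3 h below, held no match, and Ccne2, also called there, had no sequence to search. Only exact copies of these letters within 250 bases upstream were counted. A gene without a match may therefore still have an E2F site, in other letters or elsewhere. Among 53 other replication genes listed for comparison the share was 18.9%, and among 22 genes of G2 and mitosis it was 4.55%. CCAAT, searched on both strands, was found in 65.7% of the members, 40.7% of tested genes and 90.9% of the G2 and mitosis genes. TTTGAA, the core of the element that marks many mitotic genes, was found in 14.3% of the members, 12.5% of tested genes and 36.4% of the G2 and mitosis genes. The windows of 3 members that carry the match in different arrangements are printed 5′ to 3′ on the gene's strand, with E2F letters in capitals. Dtl, on the minus strand at chr1:191575545-191575794, has its single match in the last 8 bases before the start. Mcm5, on the plus strand at chr8:75109259-75109508, has 2 overlapping matches on opposite strands. Mcm6, on the minus strand at chr1:128359706-128359955, has 3 matches.
Dtl: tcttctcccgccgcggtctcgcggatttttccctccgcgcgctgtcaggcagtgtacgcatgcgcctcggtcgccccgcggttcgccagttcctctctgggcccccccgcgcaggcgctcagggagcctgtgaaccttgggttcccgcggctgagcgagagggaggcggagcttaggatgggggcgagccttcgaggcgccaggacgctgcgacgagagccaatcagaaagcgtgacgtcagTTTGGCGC
Mcm5: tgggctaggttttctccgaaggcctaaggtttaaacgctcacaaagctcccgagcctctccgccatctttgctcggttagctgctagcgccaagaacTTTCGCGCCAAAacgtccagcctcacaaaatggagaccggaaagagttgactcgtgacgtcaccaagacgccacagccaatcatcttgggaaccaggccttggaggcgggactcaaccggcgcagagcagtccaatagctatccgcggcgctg
Mcm6: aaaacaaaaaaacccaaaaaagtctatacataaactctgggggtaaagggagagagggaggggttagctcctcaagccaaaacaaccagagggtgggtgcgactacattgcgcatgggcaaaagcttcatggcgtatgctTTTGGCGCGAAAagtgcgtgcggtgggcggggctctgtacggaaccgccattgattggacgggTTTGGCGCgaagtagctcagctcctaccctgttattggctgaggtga

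At 3 h after irradiation in the libraries labelled wild type, nearly all of these genes stood a little higher than in untreated libraries, and none passed the test. The fold change was above 0 for 41 of the 43 members, with a median of 0.30 in log2(TPM + 1), a scale that makes changes of low genes look smaller. The median of all tested genes was 0.02, and 53.4% of them were above 0. Dtl at 0.68, Ccne2 at 0.67, Clspn at 0.60, Orc6 at 0.59, Mcm10 at 0.58 and Cdc45 at 0.53 had the largest differences, and only Rfc4 at -0.08 and Gins2 at -0.01 were below 0. limma called 0 of 43 members at a Benjamini-Hochberg adjusted p under 0.05, and 0% of all genes tested. At an unadjusted p under 0.05 there were 13 members, all higher (30.2%), against 3.37% of all genes in either direction. The smallest adjusted p was that of Cdc45 (0.892). In 28 members (65.1%) both 3 h libraries lay above both untreated ones, against 17.3% of all genes. In 0 members both lay below, against 13.1%.

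The library numbers come from the labels, and equally numbered libraries departed from their group means in the same way, so a fit with the number as a block was set beside the fit without it. With that block limma again called 0 members in this comparison (0.154% of all genes), with the smallest adjusted p of 0.0832 for Mcm10. At an unadjusted p under 0.05 there were then 21 members, against 9.4% of all genes. The median difference was 0.29 between the libraries numbered 1 and 0.30 between those numbered 2. In 38 members the 3 h library was higher within both numbers, and in 1 (Rfc4) it was lower within both. A bulk sample cannot tell fewer cells of a kind from less RNA in each cell, and this holds for every difference given here.

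In the libraries labelled knockout, the same interval gave a different picture: cyclin E1 fell, and the set as a whole lay where all genes lay. Ccne1, the cyclin that starts S phase with its kinase, was at 94.7 ± 12.8 TPM (SD, n = 2) untreated and at 52.0 ± 0.332 TPM (SD, n = 2) at 3 h, a log2 fold change of -0.85 (SE 0.168, limma adjusted p = 0.0132). It was the 1 member called, 2.33% of 43 against 12.1% of all genes in either direction, 6.25% higher and 5.87% lower. Of the members 33 were below 0 and 10 above, and the median of -0.13 was close to the all-gene median of -0.12. Without the 3 h library labelled knockout numbered 1 these were 21 and 22 with a median of 0.01, and without the untreated one numbered 2 they were 24 and 19 with a median of -0.02. Without the other library of either group the median was -0.22 (3 h) and -0.20 (untreated). With median-of-ratios size factors, which move the all-gene median of this comparison to -0.02, 22 were below 0 and 21 above, and Ccne1 was at an adjusted p of 0.0672. Both 3 h libraries lay below both untreated ones in 11 members, against 31.6% of all genes, and above in 3 (Pole, Rfc3 and Rrm2), against 19% of all genes.

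With the replicate block 5 members were called at 3 h under the knockout label (29.2% of all genes), and Ccne1 was among them. Pold1, the catalytic subunit of polymerase delta, fell by 0.47 (adjusted p = 0.0178) and Slbp, the histone mRNA binding protein, fell by 0.30 (adjusted p = 0.0355). Rrm2, a subunit of ribonucleotide reductase, and Tyms, thymidylate synthase, both of which serve the supply of nucleotides, rose by 0.34 (adjusted p = 0.0184) and 0.38 (adjusted p = 0.0197). The call of Ccne1 without the block was lost with only the compared groups in the fit (adjusted p = 0.0920), without either 3 h library labelled knockout (0.0813 and 0.0681) and without the untreated library labelled knockout numbered 1 (0.0991).

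**Figure D1:**
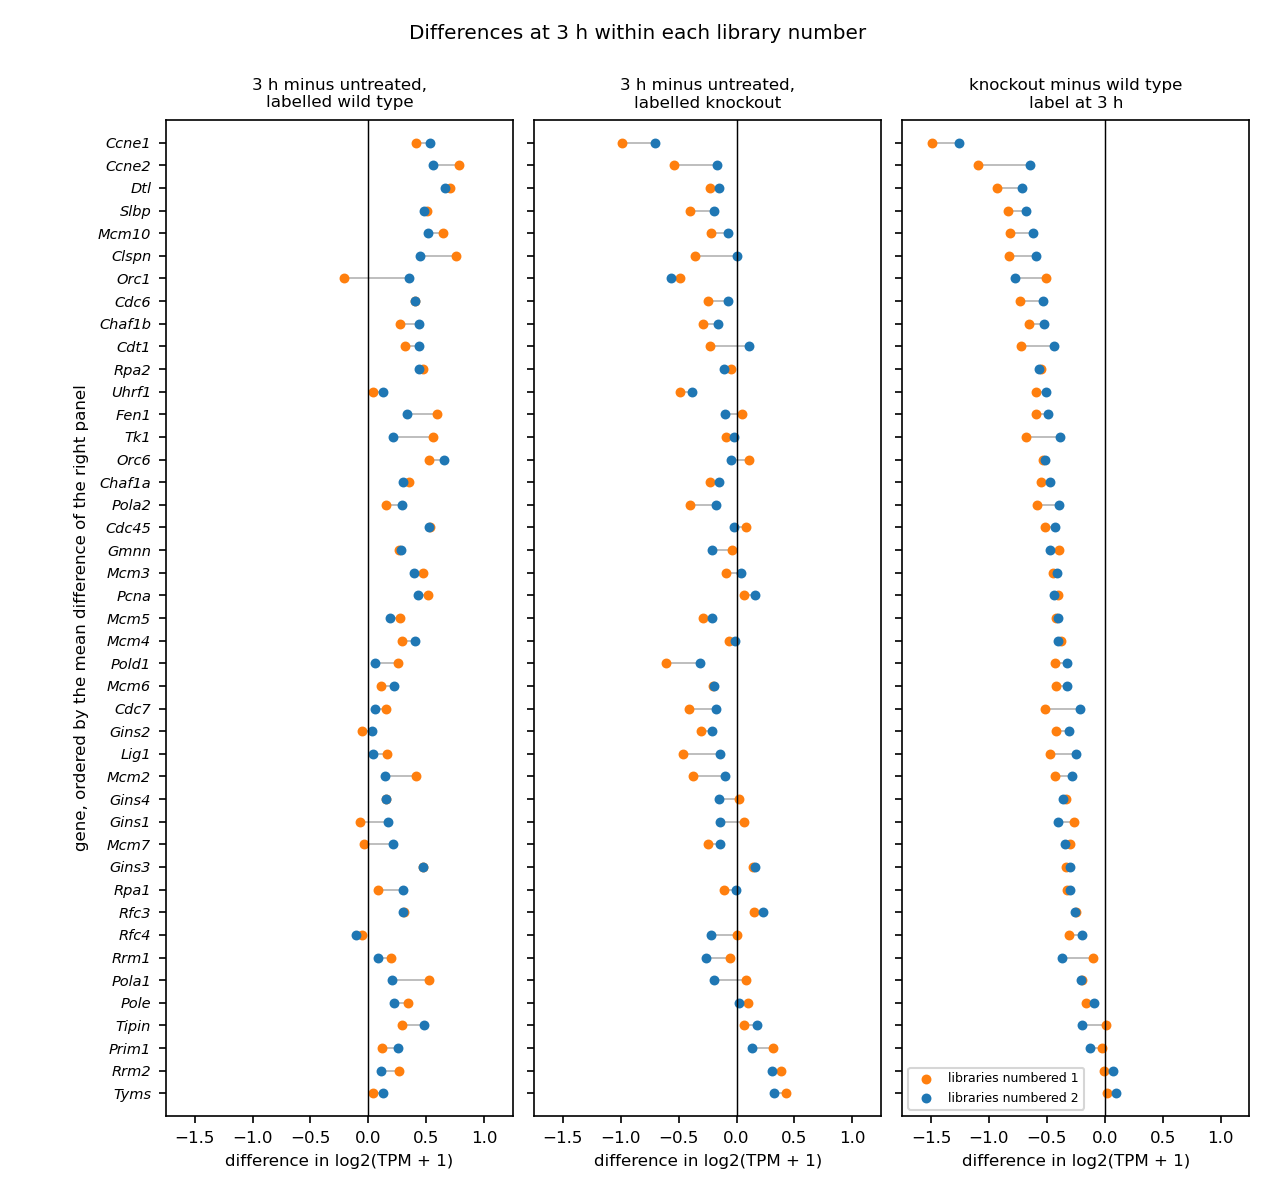
Each of the 43 genes is drawn as 2 points, the difference in log2(TPM + 1) within the libraries numbered 1 (orange) and 2 (blue): 3 h minus untreated under the wild type label (left) and the knockout label (middle), and knockout minus wild type label at 3 h (right). The left points are above 0 within both numbers in 38 genes, and the right points are below 0 within both in 40.

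At 3 h the labelled genotypes stood apart: libraries labelled knockout held less of nearly all of these transcripts than libraries labelled wild type. Ccne1, Slbp, Chaf1b and Ccne2 were called lower, and none was called higher. Ccne1 was at 137 ± 14.8 TPM (SD, n = 2) under the wild type label and 52.0 ± 0.332 TPM under the knockout label (log2 fold change -1.37, SE 0.168, limma adjusted p = 0.00147). Slbp was at 228 ± 7.59 TPM and 134 ± 5.76 TPM (-0.76, SE 0.132, adjusted p = 0.00866). Chaf1b, a subunit of the histone chaperone CAF-1, was at 102 ± 1.03 TPM and 67.4 ± 3.63 TPM (-0.59, SE 0.130, adjusted p = 0.0236). Ccne2, the second E-type cyclin, was at 78.0 ± 18.7 TPM and 41.6 ± 0.806 TPM (-0.87, SE 0.214, adjusted p = 0.0365). These 4 calls are 9.30% of the members, against 5.07% of all genes called lower, 5.25% called higher and 10.3% called in either direction. Below 0 were 41 of 43 members, with a median of -0.41 against -0.16 over all genes. In 31 members (72.1%) both libraries labelled knockout lay below both labelled wild type, against 36.2% of all genes, and in 0 members both lay above, against 18.1%.

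With the replicate block 23 members (53.5%) were called lower and 0 higher, against 18.5% and 9.67% of all genes. The 12 with the smallest p were Ccne1, Slbp, Mcm10, Dtl, Cdc6, Chaf1b, Clspn, Fen1, Ccne2, Cdt1, Cdc45 and Mcm5. Size factors move the median of all genes up by 0.146 in this comparison, to -0.015, and with them 38 of 43 members were below 0 with a median of -0.24. The number called was again 4, but these were Ccne1, Dtl (adjusted p = 0.0292), Cdc6 (0.0388) and Mcm10 (0.0408), while Slbp (0.0737), Chaf1b (0.138) and Ccne2 (0.158) lost their calls. Ccne1 passed without each of the 12 libraries in turn and was the only 1 of the 4 to pass with only the compared groups in the fit.

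Leaving out libraries ended the calls of the other 3 members. Slbp missed the threshold without the 3 h library labelled knockout numbered 1 (adjusted p = 0.0696) or either 3 h library labelled wild type (0.0797 and 0.0549). Chaf1b missed it without any 1 of the 3 h libraries (0.0787 to 0.148). Ccne2 missed it without either 3 h library labelled knockout (0.155 and 0.145), the 3 h library labelled wild type numbered 1 (0.234) and either untreated library labelled wild type (0.0571 and 0.0569). The number of members called was 1 without the 3 h library numbered 1 of either label and 2 without that numbered 2.

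The test of the difference itself, the 3 h response under the knockout label minus that under the wild type label, called 1 member. Ccne1 differed by -1.32 (SE 0.238, limma adjusted p = 0.0209), with 3.45% of all genes called in either direction, 2.59% higher and 0.856% lower. At an unadjusted p under 0.05 there were 9 members, all lower, against 15.5% of all genes. Slbp at -0.79 had an adjusted p of 0.0630 and Ccne2 at -1.02 one of 0.130. The difference was below 0 in 40 of 43 members (37 with size factors), with a median of -0.44 against -0.15 over all genes. With the replicate block 12 members were called, all lower (27.9%, against 7.39% of all genes lower): Ccne1, Slbp, Mcm10, Dtl, Ccne2, Clspn, Chaf1b, Cdc6, Mcm5, Pold1, Cdc45 and Fen1. The call of Ccne1 without the block was lost with size factors (adjusted p = 0.0842), without either 3 h library of either label (0.0567 to 0.107), without the untreated library labelled knockout numbered 1 (0.0918) and without the wild type library numbered 2 of the untreated group (0.0954). This comparison shares its samples with the 3 before it, so it is no separate evidence.

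**Figure D2:**
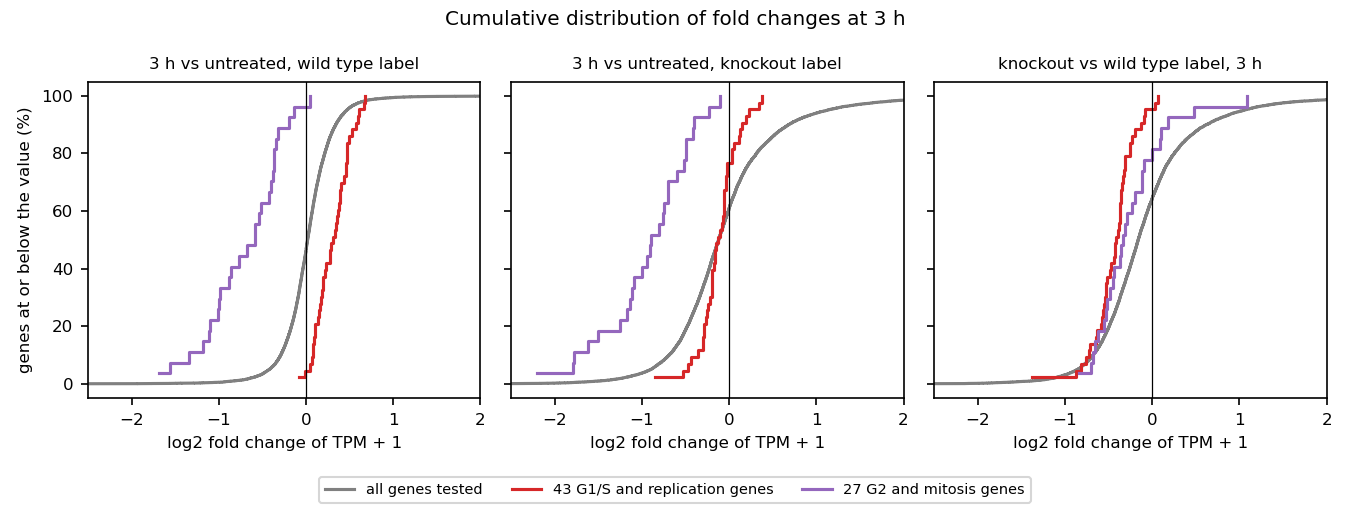
Cumulative share of genes (%) at or below each log2 fold change of TPM + 1 at 3 h, for all tested genes (grey), the 43 genes described here (red) and 27 genes of G2 and mitosis (purple). The red curve lies right of the grey one under the wild type label (medians 0.30 and 0.02), crosses it under the knockout label (-0.13 and -0.12) and lies left of it between the labels (-0.41 and -0.16).

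Cyclin E and DTL, the receptor that directs CDT1 and p21 to destruction during S phase, were the role group with the largest differences between the labels at 3 h (median -0.87). Ccne1 stood at 110.3 and 87.1 TPM untreated, 113 and 109.9 TPM at 1 h and 147 and 126 TPM at 3 h with the wild type label. For Ccne1 the libraries labelled knockout held 104 and 85.6 TPM untreated, 99.0 and 104 TPM at 1 h and 51.7 and 52.2 TPM at 3 h. The highest Ccne1 values were the 3 h libraries labelled wild type and the lowest were the 3 h libraries labelled knockout, with no overlap of either with any other group. The level of Ccne2 under the wild type label was 52.7 and 43.8 TPM untreated, 62.5 and 52.5 TPM at 1 h and 91.3 and 64.8 TPM at 3 h. Ccne2 under the knockout label was at 61.7 and 46.5 TPM untreated, 47.4 and 52.3 TPM at 1 h and 42.2 and 41.1 TPM at 3 h. The 3 h libraries labelled wild type were again the highest and those labelled knockout the lowest, but the wild type pair was spread from 64.8 to 91.3 TPM. Dtl stood at 28.7 and 33.4 TPM untreated, 41.0 and 49.3 TPM at 1 h and 47.4 and 53.3 TPM at 3 h with the wild type label. For Dtl the libraries labelled knockout held 28.8 and 35.8 TPM untreated, 30.3 and 46.7 TPM at 1 h and 24.4 and 32.1 TPM at 3 h. Dtl was the lowest of the 3 by mean level. Its 3 h libraries labelled wild type were above both untreated ones and above both 3 h libraries labelled knockout, and its difference between the labels at 3 h had an adjusted p of 0.0673, and of 0.0023 with the block. It was also called with size factors (0.0292), without either 1 h library labelled knockout (0.0401) and without both 1 h libraries numbered 2 (0.042).

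**Figure D3:**
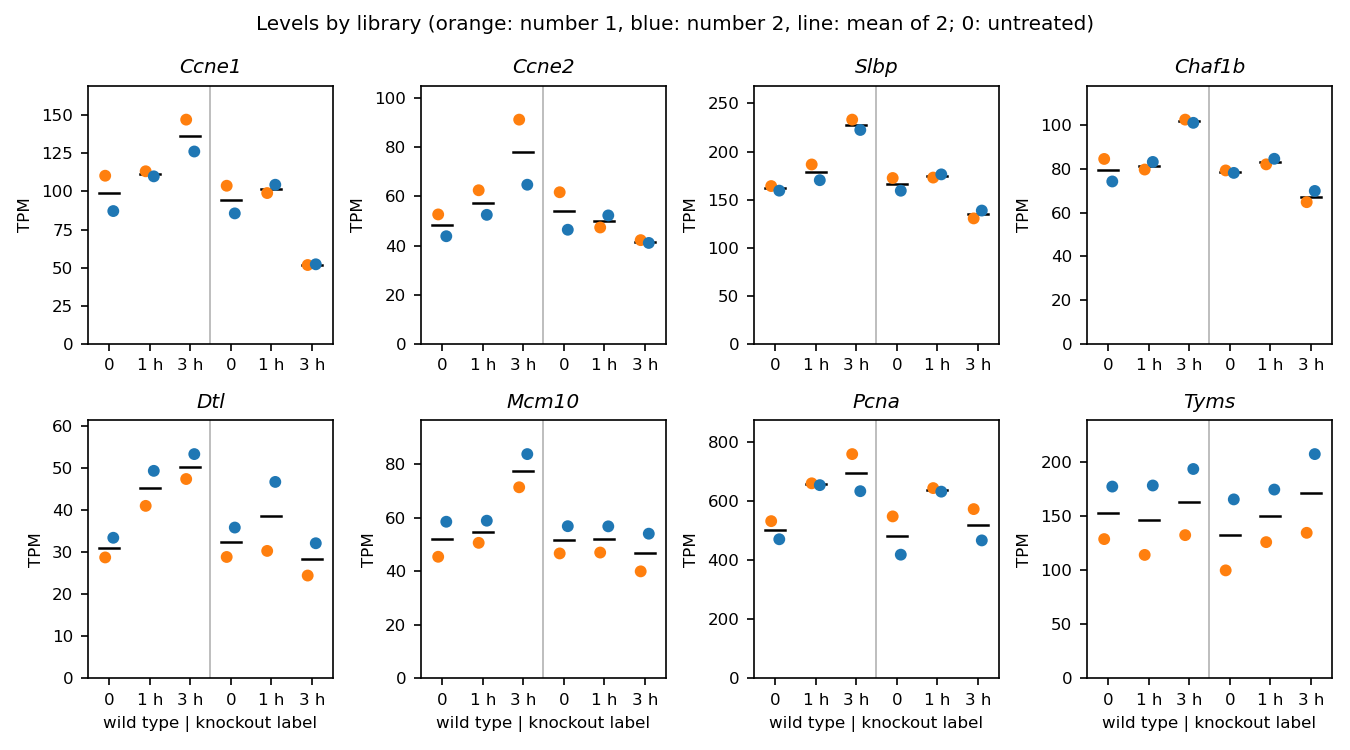
TPM (linear axis from 0) of 8 members in each library, by time (0 is untreated) under the wild type label (left of the grey line) and the knockout label (right), with orange and blue points for libraries 1 and 2 and a line at the mean of 2. Ccne1 stands at 51.7 and 52.2 TPM at 3 h under the knockout label, below its other 10 libraries, which range from 85.6 to 147.1 TPM.

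Chromatin assembly, maintenance of DNA methylation and histone mRNA processing had a median of -0.57 between the labels at 3 h. The level of Slbp under the wild type label was 164 and 159 TPM untreated, 187 and 170.2 TPM at 1 h and 233 and 222 TPM at 3 h. Slbp under the knockout label was at 172 and 159 TPM untreated, 173 and 176 TPM at 1 h and 130.5 and 139 TPM at 3 h. SLBP binds the stem-loop that ends replication histone mRNAs. Both 3 h libraries labelled wild type were above all other libraries and both labelled knockout were below all others. Chaf1b stood at 84.6 and 74.3 TPM untreated, 79.7 and 83.2 TPM at 1 h and 103 and 101 TPM at 3 h with the wild type label. For Chaf1b the libraries labelled knockout held 79.3 and 78.2 TPM untreated, 82.1 and 84.7 TPM at 1 h and 64.8 and 70.0 TPM at 3 h. The pattern of high and low 3 h libraries was that of Slbp, at a smaller size. The level of Chaf1a under the wild type label was 50.0 and 49.2 TPM untreated, 47.7 and 71.8 TPM at 1 h and 64.1 and 60.9 TPM at 3 h. Chaf1a under the knockout label was at 51.0 and 48.5 TPM untreated, 45.8 and 77.7 TPM at 1 h and 43.5 and 43.4 TPM at 3 h. Chaf1a, the large subunit of the same chaperone and the lowest of this group by mean, was raised in both 1 h libraries numbered 2, so its groups overlapped at 1 h. Uhrf1 stood at 270.4 and 274 TPM untreated, 269 and 181 TPM at 1 h and 279 and 299 TPM at 3 h with the wild type label. For Uhrf1 the libraries labelled knockout held 259 and 274 TPM untreated, 249.7 and 179 TPM at 1 h and 184 and 209.8 TPM at 3 h. UHRF1 brings the maintenance DNA methyltransferase to new DNA, and its transcript was the highest of this group. Both 3 h libraries labelled knockout were below both untreated ones, and the fall of 0.43 was not called (adjusted p = 0.283, and 0.143 with the block).

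Origin recognition and licensing genes had a median of 0.38 at 3 h under the wild type label and -0.58 between the labels at 3 h. Orc6 stood at 73.7 and 82.7 TPM untreated, 80.1 and 118 TPM at 1 h and 107 and 131 TPM at 3 h with the wild type label. For Orc6 the libraries labelled knockout held 67.7 and 94.0 TPM untreated, 74.9 and 114 TPM at 1 h and 73.1 and 91.0 TPM at 3 h. In this subunit of the origin recognition complex, the libraries numbered 2 were higher in every group. The level of Orc1 under the wild type label was 20.4 and 18.2 TPM untreated, 18.0 and 22.4 TPM at 1 h and 17.4 and 23.6 TPM at 3 h. Orc1 under the knockout label was at 17.2 and 20.3 TPM untreated, 14.9 and 23.7 TPM at 1 h and 11.9 and 13.4 TPM at 3 h. ORC1, the largest subunit of that complex and the lowest transcript of this group, had its smallest values at 3 h under the knockout label, and the wild type groups overlapped. Cdc6 and Cdt1, which load the MCM ring, were called lower between the labels at 3 h with the block (adjusted p = 0.0025 and 0.0071), and Cdc6 also with size factors. Cdc6 stood at 40.5 and 44.7 TPM untreated, 49.0 and 56.5 TPM at 1 h and 54.0 and 59.5 TPM at 3 h with the wild type label. For Cdc6 the libraries labelled knockout held 38.2 and 43.1 TPM untreated, 43.8 and 56.2 TPM at 1 h and 32.1 and 40.9 TPM at 3 h. The 3 h libraries labelled wild type were above both untreated ones, and the ranges of the 3 h labels did not overlap. Gmnn stood at 99.1 and 117 TPM untreated, 106 and 161 TPM at 1 h and 119 and 143 TPM at 3 h with the wild type label. For Gmnn the libraries labelled knockout held 93.0 and 119 TPM untreated, 107 and 159 TPM at 1 h and 90.4 and 103 TPM at 3 h. Geminin blocks the reuse of CDT1. Its 2 highest values were the 1 h libraries numbered 2, not a 3 h library.

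The MCM ring lay near the middle of the set. All 6 genes were above 0 at 3 h under the wild type label (median 0.26) and below 0 between the labels at 3 h (median -0.39), with 0 called, and between the labels they were lower within both numbers in all 6. The level of Mcm7 under the wild type label was 354 and 389 TPM untreated, 350.2 and 351 TPM at 1 h and 345 and 450.3 TPM at 3 h. Mcm7 under the knockout label was at 331 and 392 TPM untreated, 284 and 356 TPM at 1 h and 279 and 356 TPM at 3 h. Mcm7 was the most abundant ring subunit, and its wild type groups overlapped. Mcm4 stood at 176 and 181 TPM untreated, 182 and 155 TPM at 1 h and 216 and 239.6 TPM at 3 h with the wild type label. For Mcm4 the libraries labelled knockout held 173 and 183 TPM untreated, 161 and 159.9 TPM at 1 h and 165 and 181 TPM at 3 h. Mcm4, the least abundant, was higher at 3 h than untreated in both libraries labelled wild type. Mean TPM over the 12 libraries was 353 for Mcm7 and 181 for Mcm4, a ratio of 1.95 between proteins that work in equal numbers. The level of Mcm3 under the wild type label was 189 and 249 TPM untreated, 207 and 211 TPM at 1 h and 262 and 327 TPM at 3 h. Mcm3 under the knockout label was at 205 and 239.9 TPM untreated, 249.8 and 226 TPM at 1 h and 193 and 246 TPM at 3 h. Mcm3 had the largest difference of the ring at 3 h under the wild type label (0.43), with no overlap. Mcm5 stood at 257 and 258 TPM untreated, 268 and 253 TPM at 1 h and 309.6 and 294 TPM at 3 h with the wild type label. For Mcm5 the libraries labelled knockout held 284 and 257 TPM untreated, 278 and 253 TPM at 1 h and 232 and 223 TPM at 3 h. Mcm5 had the largest drop under the knockout label (-0.25), and with the block it was called between the labels at 3 h (adjusted p = 0.0084), as was Mcm4 (0.0300).

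Among the genes that activate the helicase, Mcm10, which helps the loaded ring to open DNA, and Cdc45, a part of the moving helicase, were higher in both 3 h libraries labelled wild type than in any untreated library. Mcm10 stood at 45.4 and 58.5 TPM untreated, 50.6 and 58.9 TPM at 1 h and 71.4 and 83.8 TPM at 3 h with the wild type label. For Mcm10 the libraries labelled knockout held 46.7 and 56.9 TPM untreated, 47.0 and 56.8 TPM at 1 h and 40.0 and 54.0 TPM at 3 h. Its 3 h libraries labelled wild type were above the other 10. The level of Cdc45 under the wild type label was 49.1 and 46.7 TPM untreated, 52.3 and 45.6 TPM at 1 h and 71.6 and 67.6 TPM at 3 h. Cdc45 under the knockout label was at 47.1 and 50.8 TPM untreated, 50.0 and 48.0 TPM at 1 h and 49.8 and 50.0 TPM at 3 h. Cdc45 stayed between 45.6 and 52.3 TPM in the other 10 libraries, so the 3 h pair labelled wild type stood alone. The 4 GINS genes gave a mixed result. Gins2 stood at 71.1 and 76.7 TPM untreated, 54.9 and 100.1 TPM at 1 h and 68.5 and 78.3 TPM at 3 h with the wild type label. For Gins2 the libraries labelled knockout held 63.2 and 73.2 TPM untreated, 68.0 and 109 TPM at 1 h and 50.9 and 62.9 TPM at 3 h. Gins2, the most abundant gene of this group, was highest in both 1 h libraries numbered 2, and its 3 h and untreated wild type groups overlapped. The level of Gins3 under the wild type label was 12.5 and 14.4 TPM untreated, 15.1 and 19.7 TPM at 1 h and 17.6 and 20.4 TPM at 3 h. Gins3 under the knockout label was at 12.4 and 14.6 TPM untreated, 15.6 and 19.7 TPM at 1 h and 13.8 and 16.4 TPM at 3 h. Gins3 was the lowest of all 43 members by mean and was higher in both 3 h libraries labelled wild type than in both untreated ones. Cdc7 stood at 25.8 and 23.7 TPM untreated, 29.3 and 31.6 TPM at 1 h and 28.8 and 24.7 TPM at 3 h with the wild type label. For Cdc7 the libraries labelled knockout held 26.6 and 24.1 TPM untreated, 26.0 and 25.5 TPM at 1 h and 19.8 and 21.1 TPM at 3 h. CDC7 is the kinase that fires origins, and its transcript was lower in both 3 h libraries labelled knockout than in both untreated ones.

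The polymerases and primase differed least between the labels at 3 h apart from nucleotide supply (median -0.20). The level of Pold1 under the wild type label was 82.6 and 66.1 TPM untreated, 97.4 and 68.3 TPM at 1 h and 98.9 and 68.7 TPM at 3 h. Pold1 under the knockout label was at 112 and 68.3 TPM untreated, 103 and 63.5 TPM at 1 h and 73.2 and 54.5 TPM at 3 h. In every group the library numbered 1 was the higher, and its call at 3 h under the knockout label depends on the block (adjusted p = 0.477 without it and 0.0178 with it). Pola1 stood at 29.9 and 32.6 TPM untreated, 31.6 and 27.2 TPM at 1 h and 43.6 and 37.7 TPM at 3 h with the wild type label. For Pola1 the libraries labelled knockout held 35.7 and 37.3 TPM untreated, 26.5 and 27.8 TPM at 1 h and 37.8 and 32.5 TPM at 3 h. Pola1, the catalytic subunit of the priming polymerase and the lowest of the group, was higher in both 3 h libraries labelled wild type than in both untreated ones. The level of Prim1 under the wild type label was 65.5 and 75.1 TPM untreated, 61.7 and 80.8 TPM at 1 h and 71.0 and 89.9 TPM at 3 h. Prim1 under the knockout label was at 55.8 and 74.9 TPM untreated, 60.7 and 73.8 TPM at 1 h and 69.7 and 82.2 TPM at 3 h. Prim1, the primase, was among the 3 members closest to 0 between the labels at 3 h (-0.08), and its groups overlapped there.

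Pcna, the sliding clamp that holds polymerases on DNA, was the most abundant of the 43 transcripts by mean TPM. Pcna stood at 532 and 470.5 TPM untreated, 659.7 and 654 TPM at 1 h and 759 and 633 TPM at 3 h with the wild type label. For Pcna the libraries labelled knockout held 548 and 418 TPM untreated, 644 and 631 TPM at 1 h and 572 and 467 TPM at 3 h. Both 3 h libraries labelled wild type were above both untreated ones, and both 1 h groups were too, under either label. Pcna is itself known as a p53 target as well as an E2F target. A processed copy, Pcna-ps2, also passed the filter, so its TPM may be divided with Pcna. The level of Rfc4 under the wild type label was 29.8 and 58.2 TPM untreated, 30.5 and 107 TPM at 1 h and 28.7 and 54.0 TPM at 3 h. Rfc4 under the knockout label was at 22.9 and 55.1 TPM untreated, 30.1 and 111 TPM at 1 h and 23.0 and 47.1 TPM at 3 h. Rfc4, a subunit of the clamp loader, split by library number in every group, and both 1 h libraries numbered 2 were the highest. Rfc3, another loader subunit, was the only member called at 1 h, with the block, as given below. Fen1 stood at 72.0 and 101 TPM untreated, 82.0 and 114 TPM at 1 h and 109 and 128 TPM at 3 h with the wild type label. For Fen1 the libraries labelled knockout held 69.4 and 96.7 TPM untreated, 85.8 and 112 TPM at 1 h and 71.9 and 90.3 TPM at 3 h. FEN1 trims Okazaki fragments, and its transcript was called between the labels at 3 h only with the block (adjusted p = 0.0047). The level of Lig1 under the wild type label was 162 and 135 TPM untreated, 148 and 138 TPM at 1 h and 182 and 139 TPM at 3 h. Lig1 under the knockout label was at 179.9 and 129 TPM untreated, 123 and 133 TPM at 1 h and 131 and 117 TPM at 3 h. LIG1 seals those fragments, and its groups overlapped under both labels at 3 h.

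Single-strand binding and fork protection genes had a median of 0.42 at 3 h under the wild type label. Clspn stood at 64.1 and 49.2 TPM untreated, 71.3 and 46.9 TPM at 1 h and 109 and 67.5 TPM at 3 h with the wild type label. For Clspn the libraries labelled knockout held 78.6 and 44.1 TPM untreated, 71.1 and 46.0 TPM at 1 h and 61.1 and 44.3 TPM at 3 h. Claspin carries the checkpoint signal at stalled forks. Clspn was higher at 3 h than untreated within both numbers under the wild type label, by 0.76 and 0.45, and was called between the labels at 3 h only with the block (adjusted p = 0.303 without it and 0.0039 with it). The level of Tipin under the wild type label was 298 and 279 TPM untreated, 331 and 275 TPM at 1 h and 366 and 390.5 TPM at 3 h. Tipin under the knockout label was at 352 and 302 TPM untreated, 301 and 289.7 TPM at 1 h and 368 and 341 TPM at 3 h. Tipin, a partner of TIMELESS at the fork, was the most abundant of the group, and its 3 h groups overlapped between the labels. Rpa2 stood at 66.8 and 84.2 TPM untreated, 77.8 and 125 TPM at 1 h and 93.0 and 114 TPM at 3 h with the wild type label. For Rpa2 the libraries labelled knockout held 65.3 and 82.5 TPM untreated, 84.6 and 119 TPM at 1 h and 63.0 and 76.6 TPM at 3 h. Rpa2, the middle subunit of the single-strand binding complex, was high in the 3 h libraries labelled wild type and also in both 1 h libraries numbered 2.

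Nucleotide supply genes were the exception between the labels at 3 h, with a median of -0.10 and the 2 members above 0. The level of Rrm2 under the wild type label was 291 and 378 TPM untreated, 319.9 and 401 TPM at 1 h and 351 and 408 TPM at 3 h. Rrm2 under the knockout label was at 268 and 346 TPM untreated, 325 and 419 TPM at 1 h and 349.8 and 428 TPM at 3 h. The 3 h libraries labelled knockout were above both untreated ones of that label and close to those labelled wild type at 3 h. Tyms stood at 129 and 178 TPM untreated, 114 and 179 TPM at 1 h and 133 and 194 TPM at 3 h with the wild type label. For Tyms the libraries labelled knockout held 99.97 and 166 TPM untreated, 126 and 175 TPM at 1 h and 135 and 208 TPM at 3 h. The same order held for Tyms within each number, and its libraries numbered 2 were the higher in every group. The difference between the labels at 3 h was 0.03 for Rrm2 and 0.06 for Tyms, with no call, which does not show equal levels. The level of Rrm1 under the wild type label was 288 and 223 TPM untreated, 373 and 178 TPM at 1 h and 330.5 and 237 TPM at 3 h. Rrm1 under the knockout label was at 319.6 and 220.0 TPM untreated, 363 and 181 TPM at 1 h and 307 and 183 TPM at 3 h. Rrm1 encodes the large subunit of the reductase whose small subunit is Rrm2. It was the lower in the library numbered 2 of every group, and Rrm2 was the higher. Tk1 stood at 52.5 and 71.1 TPM untreated, 47.5 and 91.5 TPM at 1 h and 77.7 and 82.8 TPM at 3 h with the wild type label. For Tk1 the libraries labelled knockout held 51.5 and 63.8 TPM untreated, 65.9 and 87.5 TPM at 1 h and 48.2 and 63.0 TPM at 3 h. Tk1, thymidine kinase, was the lowest of these 4 by mean. Both its 3 h libraries labelled wild type were above both labelled knockout. The 8 members not given by library above (Mcm2, Mcm6, Cdt1, Gins1, Gins4, Pola2, Pole and Rpa1) had fold changes from 0.05 (Gins1) to 0.38 (Cdt1) at 3 h under the wild type label. Under the knockout label they ran from -0.29 (Pola2) to 0.06 (Pole), and between the labels at 3 h from -0.58 (Cdt1) to -0.13 (Pole). Of these 8, Cdt1, Pola2 and Gins4 were called lower between the labels with the block.

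**Figure D4:**
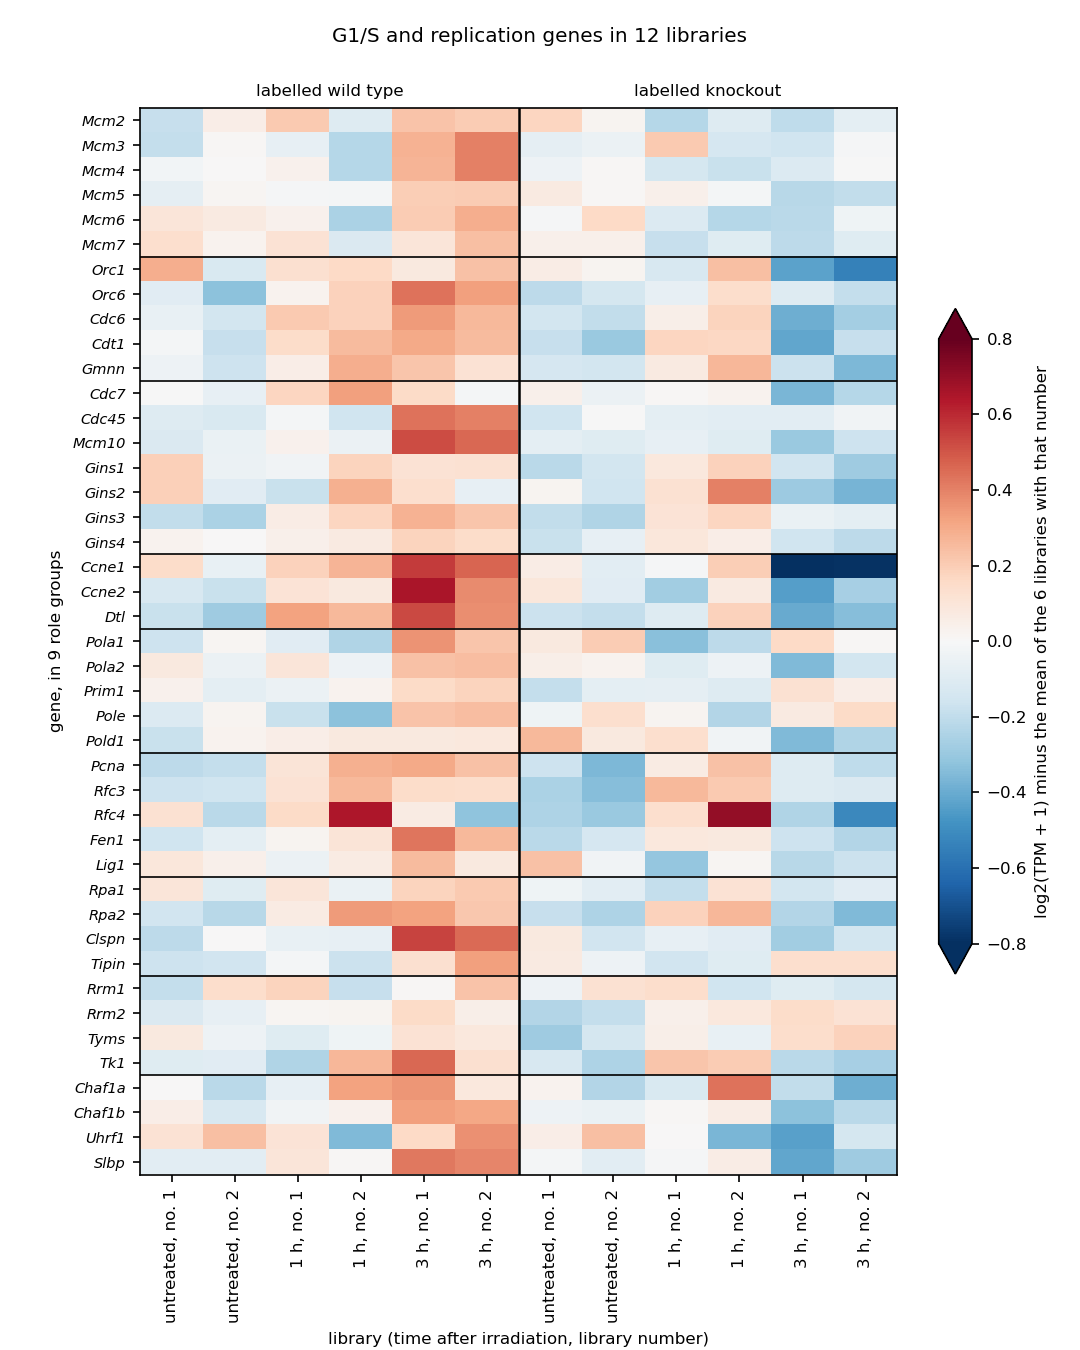
Colour shows log2(TPM + 1) of each of the 43 genes (rows, by role) in each of the 12 libraries (columns, by label, time and number), minus the mean of the 6 libraries with the same number. The 3 h libraries labelled wild type are the reddest columns, with summed member TPM of 6533 and 6810, and the 3 h libraries labelled knockout hold the deepest blue in Ccne1 (summed member TPM 4950 and 5313).

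Other genes of the same pathways moved in part with these. A list of 67 (further licensing and firing factors, kinase control of S phase, polymerase subunits, nucleotide enzymes, fork checkpoint, fork repair and chromatin maintenance) had 48 members above 0 at 3 h under the wild type label (median 0.17), and limma called 0 of them. Under the knockout label at 3 h Cdca7, which helps to maintain DNA methylation, fell by 0.74 (adjusted p = 0.00754). Dbf4, the activator of CDC7, fell by 1.14 (adjusted p = 0.0217). Msh6, a mismatch repair gene, rose by 1.02 (adjusted p = 0.0409). These 2 falls and 1 rise stand against 5.87% of all genes called lower and 6.25% higher. All 3 calls were lost with only the compared groups in the fit (adjusted p = 0.0945, 0.127 and 0.116). Cdca7 and Dbf4 also missed the threshold without the 3 h library labelled knockout numbered 1 (0.0583 and 0.148) or the untreated one numbered 2 (0.0572 and 0.133). Msh6 missed it with size factors (0.0723), with no filter (0.0641) and without any 1 library outside the 1 h group labelled wild type (up to 0.223). Between the labels at 3 h, 57 of the 67 were below 0 and 4 were called (5.97%, against 5.07% of all genes called lower), all lower: Skp2 (-0.74, adjusted p = 0.00702), Cdca7 (-0.66, adjusted p = 0.0143), Ticrr (-0.66, adjusted p = 0.0227) and Usp1 (-0.90, adjusted p = 0.0442). SKP2 targets the cyclin kinase inhibitor p27 for destruction, TICRR acts in origin firing and USP1 removes ubiquitin from PCNA. Skp2 stood at 85.6 and 88.9 TPM untreated, 90.8 and 83.3 TPM at 1 h and 114 and 109.7 TPM at 3 h with the wild type label. For Skp2 the libraries labelled knockout held 87.8 and 86.1 TPM untreated, 84.3 and 86.1 TPM at 1 h and 66.9 and 66.6 TPM at 3 h. Without a single library, Skp2 kept its call in 10 of 12 fits (lost without the 3 h library numbered 1 of either label, at 0.0503 and 0.0689). Cdca7 and Ticrr kept theirs in 8 of 12 (lost without any 3 h library of either label), and Usp1 in 4 of 12 (kept without a 1 h library of either label, and lost without any other). With size factors Skp2 (0.0599), Cdca7 (0.108) and Ticrr (0.0568) were not called, and none of the 4 was with only the compared groups (0.0593 to 0.114). Usp1 was also not called without a filter (0.0637). The highest and the lowest Skp2 values were the 3 h libraries labelled wild type and knockout. With the block 31 of the 67 (46.3%) were called lower and 5 (7.46%) higher in that comparison, against 18.5% and 9.67% of all genes.

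Against untreated libraries, genes of G2 and mitosis lay lower at 3 h under both labels. Of 27 such genes 26 were below 0 at 3 h under the wild type label (median -0.58, 0 called and 9 lower with the block), and 27 under the knockout label (median -0.89, 12 called lower, and 24 with the block). Of all genes 0% were called under the wild type label, and 0.148% lower with the block. Under the knockout label 5.87% were called lower, and 18.1% with the block. Between the labels at 3 h they lay in the same direction as the 43, with 22 of 27 below 0 and a median of -0.33. There 4 were called, all lower, against 5.07% of all genes. With the block 13 were called lower and 2 higher, against 18.5% and 9.67% of all genes. Plk1, a mitotic kinase, differed from untreated by -1.56 (adjusted p = 0.0508) under the wild type label, where it was called with the block (0.00299), with size factors (0.0279) and with no filter (0.0146), and fell by 2.20 (adjusted p = 5.79e-05) under the knockout label. Ratios within a library do not depend on how TPM is scaled between libraries. The mean of Mcm2 to Mcm7 over Plk1 was 4.89 and 5.11 at 3 h under the wild type label and 5.83 and 6.07 under the knockout label, against 1.40 to 2.12 in the other 8 libraries. Ccne1 over Ccne2 was 1.23 and 1.27 in the 3 h libraries labelled knockout and 1.61 to 2.09 in the other 10. Ccne1 over the mean of Mcm2 to Mcm7 was 0.245 and 0.211 in the 3 h libraries labelled knockout and 0.319 to 0.530 elsewhere. Ccne1 was therefore lower in those 2 libraries against Ccne2 and against the MCM ring as well as in TPM.

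**Figure D5:**
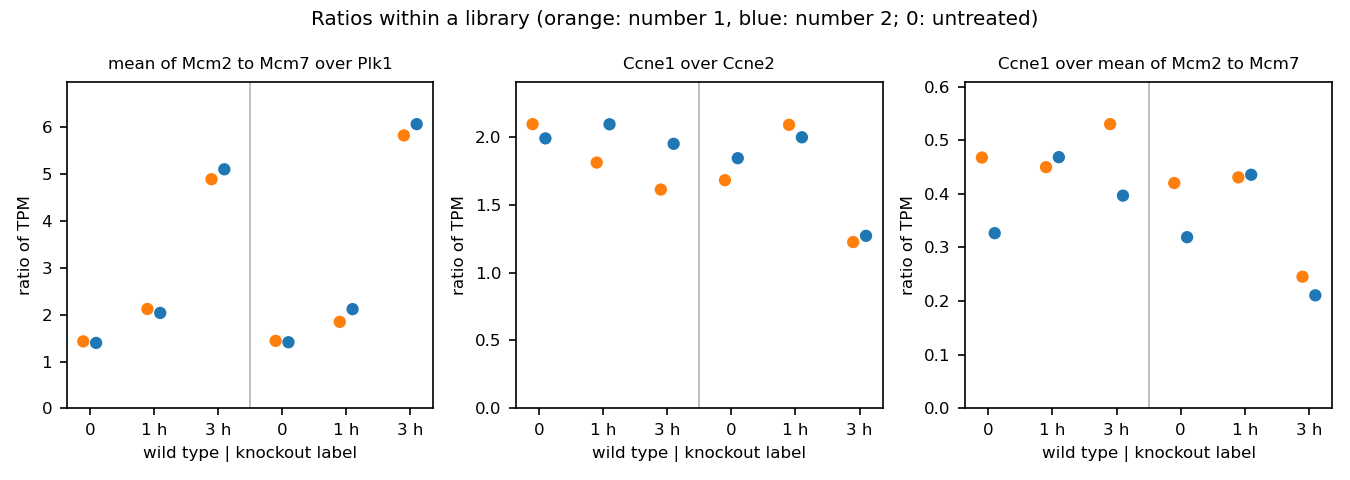
Ratios of TPM within each library (linear axes from 0), by time (0 is untreated) under the wild type label (left of the grey line) and the knockout label (right), with orange and blue points for libraries 1 and 2. The mean of Mcm2 to Mcm7 over Plk1 is at 4.89 to 6.07 in all 3 h libraries, and both ratios with Ccne1 are lowest in the 3 h libraries labelled knockout.

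At 1 h little was called. Under the wild type label 34 of 43 members were above untreated (median 0.07), and limma called 0 members and 0% of all genes, with 0 members at an unadjusted p under 0.05 (3.98% of all genes). Without the 1 h library numbered 2, which stood apart, 23 were above and the median was 0.016, and without that numbered 1 it was 0.19. Without either untreated library it was 0.11 or 0.12. With the block 0 members were called and 9 had an unadjusted p under 0.05 (10.4% of all genes). Under the knockout label 28 were above untreated (median 0.08), with 22 and a median of 0.015 without the 1 h library numbered 2. The median was 0.15 without the 1 h library numbered 1, and 0.045 and 0.14 without untreated libraries 1 and 2. Here limma called 0 members (0.103% of all genes, 0.0837% higher), and 3 had an unadjusted p under 0.05 (9.06% of all genes). With the block 1 was called, Rfc3, higher by 0.53 with a limma adjusted p of 0.0377 (0.914% of all genes, 0.251% higher and 0.663% lower). The level of Rfc3 under the wild type label was 81.1 and 92.7 TPM untreated, 98.6 and 124 TPM at 1 h and 101 and 114 TPM at 3 h. Rfc3 under the knockout label was at 76.0 and 81.6 TPM untreated, 109 and 119.8 TPM at 1 h and 84.5 and 95.5 TPM at 3 h. Rfc3 was higher at 1 h than untreated in both libraries of both labels. Both 1 h libraries labelled knockout were above both untreated ones in 9 members, against 11.3% of all genes, and below in 5, against 20.3%. Without irradiation the labels differed in 0 called members (0.0193% of all genes), with 19 above and 24 below 0. At 1 h they also differed in 0 called members (0.0386% of all genes), with 18 above and 25 below, and no member had an unadjusted p under 0.05 in either comparison (1.2% and 1.35% of all genes). Because Trp53 was far apart within each untreated group, the untreated comparison cannot show whether the genotypes were alike. The test of the difference of the 1 h responses called 0 members (0.00644% of all genes), with 0 at an unadjusted p under 0.05 (1.21% of all genes).

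The library number was a large source of spread among these genes. In 20 members the library numbered 2 was the higher in all 6 groups, in 5 (Rrm1, Clspn, Pold1, Mcm2 and Pcna) it was the lower in all 6, and 18 followed neither. Rfc4 was higher in number 2 by 1.28 on the log2 scale on average, and Rrm1 was lower by 0.70. Marker genes of other tissues moved with the groups too. Summed TPM of 6 primitive erythroid markers was 11080 to 13360 at 3 h under the knockout label and 4522 to 6537 under the wild type label. For 6 neural progenitor markers it was 116.7 to 118.3 and 271 to 337 TPM, for 6 cardiac muscle markers 2422 to 2683 and 1050 to 1226 TPM, and for 7 neuron markers 52.5 to 59.3 and 99.0 to 108.8 TPM. For 8 visceral endoderm markers the sums were 167.5 to 451.3 and 96.0 to 137.8 TPM. For 8 posterior Hox genes, which rise with stage, they were 20.4 to 25.9 and 56.5 to 72.0 TPM at 3 h, and 84.2 to 115.6 TPM in all 1 h libraries. Untreated, the Hox sums already differed between the labels, at 11.8 to 17.3 TPM for knockout and 61.3 to 79.4 TPM for wild type. The trophoblast marker Tpbpa and the decidua markers Prl8a2 and Prl3c1 were listed at 0 in all libraries. The sum of the decidua list therefore came only from its other 2 genes, Cryab and Dio3. It was 74.3 to 83.5 TPM at 3 h under the knockout label and 28.5 to 29.5 TPM under the wild type label. For the 7 trophoblast markers, of which 3 passed the filter, the sum was 10.2 to 16.2 and 5.81 to 6.82 TPM. The part of these tissue markers in the differences above was not tested.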

How the data were processed

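The authors deposited 1 table of TPM for the 12 libraries, with column sums of 999999.1 to 1000000.8, and per the submitters' processing notes the tools were RSEM 1.3.3, STAR 2.7.3a, DESeq2 1.42.1, HTSeq 0.12.3 and R 4.3.3 on build GRCm39, without a role for each. The sources used here do not state the annotation or strand setting, so overlapping genes and close copies may share reads. Libraries were made from about 500 ng of RNA and read as pairs of 75 bp, per the labels' protocols. Symbols were matched by gene ID to GENCODE names (52093 IDs, 97.1%).

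The 15535 genes that reached 1 TPM in 2 or more libraries were tested on log2(TPM + 1) with limma 3.58.1 in R 4.3.3, with a trend, 1 mean for each of 6 groups, 6 residual degrees of freedom (5 with the block) and 9 two-sided contrasts. Benjamini-Hochberg adjustment ran over all genes of a contrast, with a call at adjusted values under 0.05. The fit without the block was tested on simulated data. The simulated noise was independent between libraries, so an effect shared by libraries of equal number was not covered. Deviations from group means correlated between libraries of equal number at 0.327 to 0.796 across genes in all 15 pairs of groups, hence the block. The numbers come from the labels, which do not say what they share.

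The members and lists were chosen with earlier results of these data known. All members are accounted for by role. Named are members called with or without the block (up to 12 by smallest p), the highest and lowest of each role by mean TPM, those with the largest rise and fall at 3 h, and up to 6 called genes of the wider pathways per comparison. Other members are named to complete a count or beside a partner. Alternatives were a pseudocount of 0.1, no filter, median-of-ratios size factors, only the groups compared, the block, and leaving out libraries. Python 3.11.15 with matplotlib 3.10.9 drew the figures.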

Additional observations from a re-analysis of the deposited data

Results flagged for a closer look

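The 3 h response of Ccne1 differed between the labelled genotypes, by -1.32 on the log2(TPM + 1) scale (knockout minus wild type label, limma, Benjamini-Hochberg adjusted p = 0.0209). It stands here because the test of the difference itself passed the threshold. With size factors it was not called. Leaving out 1 library moved the difference between -1.49 and -1.15, and the call did not hold in all of those fits, as given above. Ccne1 was higher at 3 h than untreated within both library numbers under the wild type label and lower within both under the knockout label.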

How the results depend on the processing

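Without 1 library the median fold change of the members ranged from 0.289 to 0.361 at 3 h under the wild type label and from -0.219 to 0.01, across 0, under the knockout label. It ranged from -0.518 to -0.381 between the labels at 3 h, with -0.242 under size factors. The pooled SD between replicates of the members' median log2(TPM + 1) was 0.176. That is larger in size than the median of -0.127 at 3 h under the knockout label, but it pools all 6 groups, with the 1 h groups among them. In the groups of that comparison the pairs lay closer, at 6.129 and 6.278 (3 h) and 6.315 and 6.368 (untreated). The 1 h pairs lay furthest apart, at 6.37 and 6.79 under the wild type label and 6.42 and 6.81 under the knockout label. Of the counts of members called, 52 of 63 were within 1.5 times of the count without alternatives. Most of these set 0 against 0, which was scored as the same. The share therefore says little about the comparisons that had calls. With the replicate block the count went from 0 to 1 at 1 h under the knockout label, from 1 to 5 at 3 h under that label, from 4 to 23 between the labels at 3 h and from 1 to 12 for the difference of the 3 h responses. It changed no other count of members. With size factors it was 0 at 3 h under the knockout label and 0 for the difference of responses, and with only the groups compared 0 and, between the labels at 3 h, 1. Without a filter it was 2 for the difference of responses. Without both untreated libraries numbered 2 it was 2 between the labels at 3 h and 0 for the difference. Without 1 library it ranged from 0 to 1 at 3 h under the knockout label, from 1 to 5 between the labels at 3 h and from 0 to 1 for the difference. The block leaves 1 residual degree of freedom fewer, and otherwise the cause was not tested. For single genes 44 values passed the threshold and 32 lost it, with 407 on the same side. Over all genes the count between the labels at 3 h went from 1603 to 4371 with the block, 610 with only those groups and 955 without both untreated libraries numbered 2. At 3 h under the knockout label it went from 1883 to 4534, 466 and 643. For the difference of responses it went from 536 to 2078 with the block and to 85 without those untreated libraries. At 1 h under the knockout label it went from 16 to 142 with the block, to 0 with only those groups or without both untreated libraries numbered 2, and to 5 without both 1 h libraries numbered 2. At 3 h under the wild type label it went from 0 to 24 with the block and to 15 without a filter. With size factors 1160 genes were called higher and 575 lower between the labels at 3 h, against 815 and 788 as deposited. At 3 h under the knockout label they numbered 1312 and 806, against 971 and 912. TPM keeps no depth, so it sets no stated limit here, and 2 libraries in each group limit the precision.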
